A study of Mus musculus with 16 samples.

Results

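The cytosolic ribosomal protein genes encode the protein part of the ribosome, and 87 of the 20101 gene rows of the table carry their names. They were found by symbol: Rpl or Rps followed by a digit, or Rplp0, Rplp1, Rplp2 and Rpsa, leaving out S6 kinase genes and names that mark pseudogenes. Of these 87 genes, 31 encode proteins of the small subunit and 46 proteins of the large subunit. The other 10 are Rpl3l, Rpl7l1, Rpl10l, Rpl22l1, Rpl32l, Rpl36al, Rpl37rt, Rpl39l, Rps19bp1 and Rps27l, which are paralogs, related genes or, for Rpl32l and Rpl37rt, pseudogenes in the GENCODE annotation. A gene was tested where its level reached 1 FPKM in at least 4 libraries, which 83 members did, among them all 77 subunit genes. FPKM counts sequenced fragments after division by transcript length and library depth.

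RNA was measured in epididymal white adipose tissue, which lies along the epididymis, when the mice were 21 weeks old. The libraries come from 4 groups of 4 mice: WT or ApoA4-altered mice (KO in the sample titles, ApoA4 knockdown in the genotype field), each on a chow of 5% fat or on a high-fat diet (HFD) of 60% fat given from 5 weeks of age. All 16 libraries were made from total RNA isolated with TRIzol. The labels used here do not say how ApoA4 was altered, in which cells, or from how many litters the mice came.

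Apoa4 RNA, the target of the genetic change, did not fall in the libraries labelled KO. It was listed at 0.29, 0.25, 0.23 and 0.09 FPKM in chow WT replicates 1 to 4 and at 0.29, 0, 0.08 and 0 in HFD WT. The libraries labelled KO had 3.59, 1.96, 5.96 and 5.29 FPKM on chow and 8.69, 9.63, 7.23 and 4.93 FPKM on HFD, so every one stood above every library labelled WT. Each genotype direction given here therefore rests on the labels alone. The gene Nnt had 25.9, 25.7, 28.4 and 29.2 FPKM in chow WT replicates 1 to 4, and 6.5 to 10.6 FPKM in all other libraries. Whether chow WT differed from the other groups by more than diet and label was not tested. Markers of adipocytes (15 of 15 genes with a row, none at 0 in any group) summed to 27444 to 58047 FPKM on chow and to 5278 to 29527 FPKM on HFD. Those of macrophages (15 of 15, none at 0) summed to 811 to 1122 FPKM on chow and 2599 to 12644 FPKM on HFD. Transcripts of the epididymis and testis, a list of 21 genes, were concentrated in 3 libraries labelled KO: replicate 2 on chow (a sum of 17283 FPKM) and, on HFD, replicates 2 (357 FPKM) and 4 (5981 FPKM), where the other 13 libraries had at most 48.4 FPKM. For the diet comparison in KO-labelled mice, the counts are also given without these 3 libraries. Any fit without them rests on replicates 1 and 3 alone in HFD KO and on replicates 1, 3 and 4 in chow KO. Tissue RNA cannot tell fewer cells of a type from less RNA per cell.

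A ribosome holds 1 copy of most of its proteins, and the genes are known to be expressed at matched levels in nearly every cell. Much of their control is known to act on translation: their mRNAs carry a 5′ terminal oligopyrimidine (TOP) tract, a C followed by pyrimidines at the first base, through which the kinase mTOR and the protein LARP1 set how strongly they are translated. RNA abundance does not read that control. Many of the genes also host small nucleolar RNAs (snoRNAs) in their introns, which guide the modification of ribosomal RNA.

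The annotation shows these family features. All 87 members matched RefSeq (GRCm38.p6). They lie on 19 chromosomes, and 14 of them on chromosome 7. A snoRNA gene lies inside 30 members on the same strand (34.5%), against 208 of 12519 tested genes with an annotation (1.66%), with 5 inside Rpl4 and 4 inside Rpl13a. Members are short, with a median of 1734 exon bases against 4448 for tested genes. Processed copies are many: 56 members have at least 1 pseudogene named after them, 288 in all, with 24 for Rpl31, 23 for Rps12 and 15 for Rpl21. Reads from such near-identical copies may be split or dropped by the counting, so the level of a member is less certain than its short length alone would make it.

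A start-site tract, searched on the gene's strand as a C with at least 4 further pyrimidines that begins within 5 bases of the annotated start, was found in 30 of 67 members with a RefSeq promoter (44.8%). It was found in 27 of 57 subunit genes (47.4%), 17 of 69 mitochondrial ribosomal protein genes (24.6%) and 2414 of 10110 tested genes (23.9%). The ETS-type motif CCGGAAG, on either strand of the 300 bases around the start, was in 38.8% of members, 37.7% of mitochondrial ribosomal protein genes and 19.8% of tested genes. The YY1 motif AAGATGGC was in 8.96% of members against 5.18%, and TATAAA in 11.9% against 9.13%. The windows of 30 bases below belong to the members whose levels the results turn on, 15 bases before the start and 15 from it, 5′ to 3′ on the gene's strand, with the tract in capitals where one was found. They are printed to show that these members do not share one kind of start.
Rplp2, chr7:141447636-141447665, plus strand: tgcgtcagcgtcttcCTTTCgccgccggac
Rps26, chr10:128626492-128626521, minus strand: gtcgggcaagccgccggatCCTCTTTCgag
Rps28, chr17:33824548-33824577, minus strand: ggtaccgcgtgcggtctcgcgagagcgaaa
Rpl28, chr7:4792950-4792979, plus strand: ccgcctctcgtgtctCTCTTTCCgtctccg
Rpl27, chr11:101442230-101442259, plus strand: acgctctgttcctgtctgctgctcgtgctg
Rpl7l1, chr17:46782642-46782671, minus strand: gtgaggctgcgcaagcgcagtagctgaagc
Rpl36al, chr12:69184053-69184082, minus strand: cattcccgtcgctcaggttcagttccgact
Rpl22l1, chr3:28805493-28805522, plus strand: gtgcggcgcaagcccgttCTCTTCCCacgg
Rps27l, chr9:66946071-66946100, plus strand: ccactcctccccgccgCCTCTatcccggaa
Rps27, chr3:90213634-90213663, minus strand: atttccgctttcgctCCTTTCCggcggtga
Rps6, chr4:86857353-86857382, minus strand: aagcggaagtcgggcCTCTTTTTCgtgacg
Rplp2, Rpl28, Rps27 and Rps6 have a tract at the annotated start itself. That of Rps26 begins 4 bases after it, that of Rpl22l1 3 bases after it and that of Rps27l 1 base after it. None was found in these windows of Rps28, Rpl27, Rpl7l1 and Rpl36al. Another annotated start of Rps27l, with its window at chr9:66946398-66946427, had no tract. A matching tract is a description of the letters around an annotated start, which may differ from the start used in this tissue.

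The family made up a large share of the summed gene FPKM in this tissue, which is scaled by length and is not a share of RNA mass. Summed over the 87 members, it took 6.64%, 5.88%, 5.90% and 6.19% of all gene FPKM in chow WT replicates 1 to 4, and 6.20%, 7.80%, 6.44% and 6.24% in chow KO. On HFD the share was 5.33%, 8.09%, 6.93% and 6.68% in WT and 8.36%, 5.96%, 7.06% and 8.73% in KO. On chow the mean share was 6.15% ± 0.356 for WT and 6.67% ± 0.760 for KO, and on HFD 6.76% ± 1.13 for WT and 7.52% ± 1.27 for KO (SD, n = 4). All 4 groups overlapped, and the HFD libraries spread more widely than those of chow WT. Small subunit genes summed to 0.676 ± 0.0108 (WT) and 0.675 ± 0.0164 (KO) of the large subunit genes' FPKM on chow, and to 0.697 ± 0.0161 (WT) and 0.703 ± 0.0317 (KO) on HFD (SD, n = 4).

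**Figure D1:**
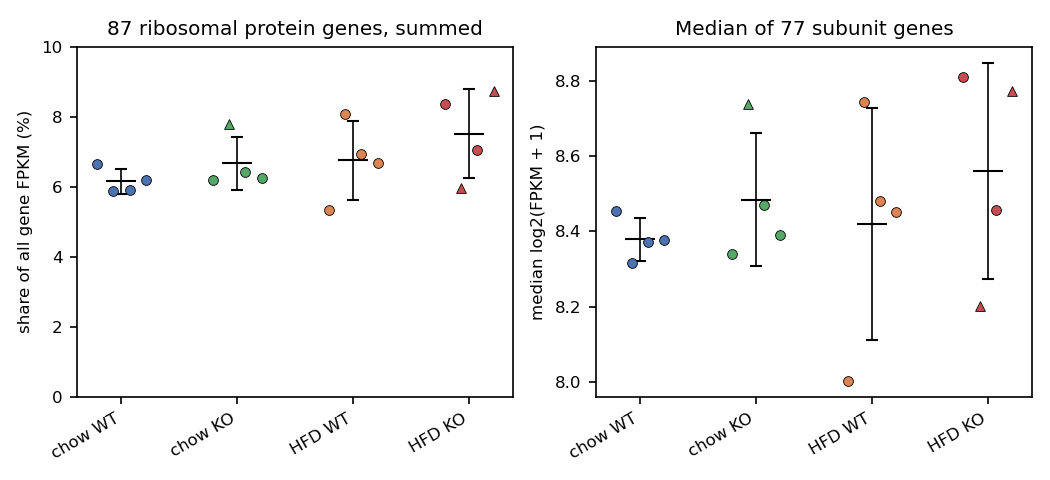
The left panel plots the share of all gene FPKM held by the 87 ribosomal protein genes (percent), and the right panel the median log2(FPKM + 1) of the 77 subunit genes, for the 4 libraries of each group, with the mean and SD; triangles mark the 3 libraries with epididymal transcripts. The share ranged from 5.33% to 8.73%, and the groups overlapped in both panels.

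Levels of single members covered a wide range. Rpl41, a very short basic protein of the large subunit, had the highest mean over the 16 libraries at 984 FPKM, ahead of Rplp2 at 958 FPKM and Rpl35 at 902 FPKM. The median subunit gene stood at 355 FPKM, and 72 of the 77 had a mean of at least 100 FPKM. The 5 below that were Rpl23, Rps20, Rpl22, Rps15a and Rps6. Rps6, the phosphorylated target of S6 kinase, was the lowest at a mean of 16.4 FPKM, 60.1-fold under Rpl41, with Rps15a at 22.2 FPKM and Rpl22 at 41.2 FPKM. Whether pseudogene copies (4 are named for Rps6, 8 for Rps15a and 1 for Rpl22) or the counting bear on them was not tested. Across the 77 subunit genes, mean FPKM had a Spearman rho of -0.05 with the number of named pseudogenes and of -0.24 with exon bases, both given as descriptions across genes.

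**Figure D2:**
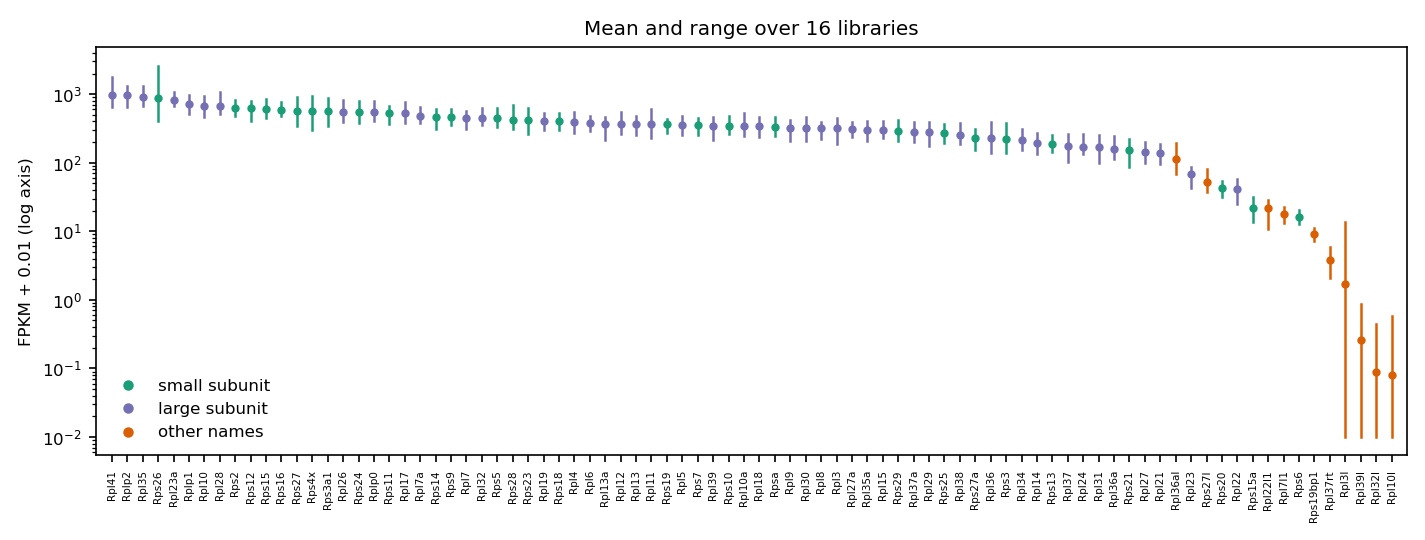
FPKM + 0.01 on a log axis for 84 of the 87 members, ordered by mean, with a point for the mean and a line for the range over 16 libraries, coloured by subunit. The subunit genes lie close together except for the 5 with means under 100 FPKM, and the lowest members are 4 paralogs and related names.

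The 4 members under the filter were nearly silent in most libraries. Rpl10l, a paralog of Rpl10 known from testis, was listed at 0 in 13 libraries and reached at most 0.57 FPKM, in HFD KO replicate 4. Rpl32l was at most 0.43 FPKM, and Rpl39l, a paralog of Rpl39 also known from testis, at most 0.85 FPKM, in chow KO replicate 2. Rpl3l, the paralog that replaces Rpl3 in skeletal and heart muscle, was listed at 13.5 FPKM in the second chow KO library and at 12.8 FPKM in the fourth of HFD KO, and at no more than 0.23 FPKM in the other 14 libraries. These are the libraries with the highest sums of epididymal transcripts. Their Ckm (muscle creatine kinase) stood at 0.11 and 0.12 FPKM and their Acta1 (an actin of muscle) at 2.11 and 38.5 FPKM. In HFD KO replicate 2, Ckm was at 19.6 FPKM and Rpl3l at 0.21 FPKM. The source of the Rpl3l RNA was not tested.

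The subunit genes moved together from library to library. The median log2(FPKM + 1) of the 77 genes ranged from 8.003 in HFD WT replicate 1 to 8.81 in HFD KO replicate 1, a 1.75-fold range. In HFD WT, replicate 1 was the lowest of its group for 76 of the 77 genes and replicate 2 the highest for all 77. In HFD KO, replicate 2 was the lowest for 68 genes, and replicate 4 the highest for 43 and replicate 1 for 33. In chow KO, replicate 2 was the highest for 59. The median log2(FPKM + 1) of all tested genes was 3.43, 3.56, 3.16 and 3.25 in chow KO replicates 1 to 4, so replicate 2 was highest there too. In the same order it was 3.26, 3.41, 3.35 and 3.46 in HFD WT and 3.47, 3.51, 3.46 and 3.55 in HFD KO. Macrophage marker sums in HFD WT were 2599, 10633, 12644 and 5401 FPKM in replicates 1 to 4 and adipocyte sums 29527, 9730, 8127 and 18008 FPKM, so the library with the lowest family level was also the lowest in macrophage and the highest in adipocyte markers. In HFD KO the macrophage sums were 11521, 6558, 8564 and 3090 FPKM. There replicate 1 had the highest family level (8.81), the highest macrophage sum and the lowest adipocyte sum (5278 FPKM). Replicate 4, at a family level of 8.77 and with the highest members' share, had the lowest macrophage and the highest adipocyte sum (21330 FPKM). The part of these markers in the level of the family was not tested.

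A gene's correlation with the family median over the 16 libraries, whose points share the scaling of each library, had a median of 0.78 across the subunit genes. It was at least 0.7 for 58 of them and at least 0.9 for 10. Rps6 had the lowest value, 0.13, and Rplp2 was at 0.18. Taken relative to the family median, Rps25 was among the steadiest members (SD 0.0838 log2 over 16 libraries) and Rps26 was the most variable (SD 0.52), followed by Rpl22l1 (0.36), Rplp2 (0.35), Rpl36al (0.31) and Rps28 (0.30). Among genes widely used as references for quantitative PCR, Rplp0 had group means of 536, 544, 525 and 600.5 FPKM, Rpl13a 374, 425.5, 319 and 366 FPKM, and Rps18 393, 438, 407 and 366 FPKM, taking WT then KO on chow and then the same on HFD. None of these 3 passed the test in any comparison.

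**Figure D3:**
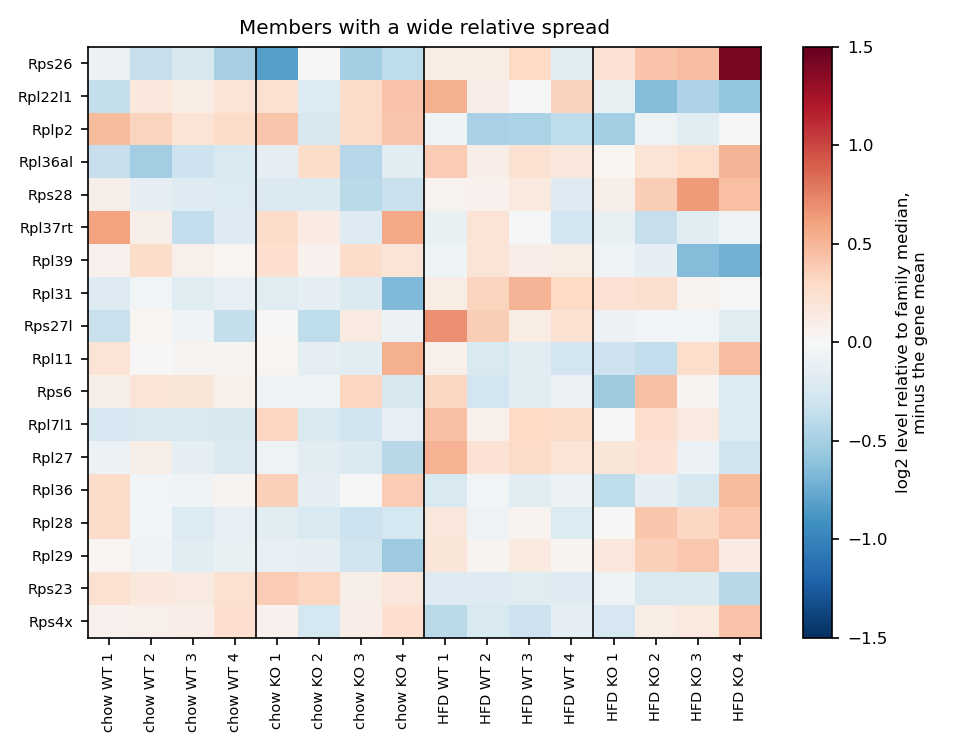
Of the 20 members with the widest spread around the family median, 18 are shown in the 16 libraries: colour gives each gene's log2(FPKM + 1) minus the library's median over the subunit genes, minus the gene's own mean, with red for higher. Rps26 is highest in HFD KO replicate 4, and Rplp2 is higher in most chow than in most HFD libraries.

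The comparison of HFD with chow in WT-labelled mice asks how the family differed between these 2 groups. Most of it moved little: the median log2 difference of the 83 tested members was 0.07, against 0.06 for all 12667 tested genes. By limma with adjustment over all tested genes (adjusted p under 0.05), 4 members rose, where 24.6% of all genes did, and 1 fell, where 17.2% did. At an unadjusted p under 0.05 the count was 8, where 50.3% of all genes had one. Without HFD WT replicate 1, the library with the lowest family level, 9 members rose, where 27.9% of all genes did. Without any 1 of HFD WT replicates 2 to 4 or chow WT replicates 2 and 3, 2 rose, where 19.3% to 21.2% of all genes did. For 80 of the 83 the 95% interval of the difference lay within a 2-fold change in either direction. None of the 31 small subunit genes passed, and of the 46 large subunit genes 1 rose and 1 fell. The other 3 that rose were among the 6 tested paralogs and related names.

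Rplp2 fell. It encodes the acidic protein P2 of the ribosomal stalk, which with P1 and P0 recruits the GTPases of elongation. It had 1301, 1065, 1016 and 1069.6 FPKM in chow WT replicates 1 to 4, and 652, 814, 683 and 717 FPKM in HFD WT. All 4 HFD libraries lay below all 4 chow libraries, by a log2 difference of -0.63 (SE 0.16, limma adjusted p = 0.00701). Its stalk partners did not pass: the log2 difference was -0.05 for Rplp0 and 0.05 for Rplp1. In KO-labelled mice Rplp2 had 1147, 961, 1149 and 1194 FPKM on chow and 842, 743, 839 and 1143 FPKM on HFD, where the groups overlapped and the log2 difference was -0.33 (SE 0.16, limma adjusted p = 0.122). Without the 3 libraries with epididymal transcripts that difference was -0.47 (limma adjusted p = 0.0472).

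Rpl7l1 rose. It is related to Rpl7 and is known from the assembly of the large subunit. Its level was 14.3, 13.2, 13.7 and 13.7 FPKM on chow and 17.04, 22.4, 21.8 and 21.3 FPKM on HFD in WT-labelled mice, with no overlap. The log2 difference was 0.55 (SE 0.12, limma adjusted p = 0.00282). In KO-labelled mice the groups overlapped, at 13.97 to 20.1 FPKM on chow and 17.3 to 22.1 FPKM on HFD.

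Rps27l, a paralog of Rps27 and a known target of p53, also rose. In WT-labelled mice it had 40.55, 47.5, 46.7 and 38.0 FPKM on chow and 60.55, 81.9, 56.6 and 60.6 FPKM on HFD, a log2 difference of 0.57 (SE 0.14, limma adjusted p = 0.00616), with no overlap. Rps27 itself had a log2 difference of -0.20 (limma adjusted p = 0.52). The ratio of Rps27l to Rps27 FPKM was 0.0662 to 0.0871 in chow WT and 0.107 to 0.174 in HFD WT, and in KO-labelled mice 0.0531 to 0.0985 on chow and 0.0726 to 0.127 on HFD, where it overlapped.

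Rpl36al, a paralog of Rpl36a that encodes a nearly identical protein, rose as well. It had 84.8, 68.35, 82.4 and 87.3 FPKM in chow WT and 103, 143, 129 and 122 FPKM in HFD WT, a log2 difference of 0.61 (SE 0.21, limma adjusted p = 0.0308), with no overlap. Rpl36a had a log2 difference of 0.11 (limma adjusted p = 0.732). The call of Rpl36al ended when any of chow WT replicates 2 and 3 or HFD WT replicates 2, 3 and 4 was left out (limma adjusted p of 0.0532 to 0.0882). It also ended with quantile normalization (limma adjusted p = 0.0571) and with the replicate block (limma adjusted p = 0.0501), and in all of these the log2 difference was 0.53 to 0.62. Reads of such close paralogs can be assigned to either gene, so the split between them is uncertain.

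Rpl27 was the large subunit gene that rose. It had 129, 133, 117 and 112 FPKM in chow WT and 145, 196, 171 and 158 FPKM in HFD WT, with no overlap. The log2 difference was 0.44 (SE 0.16, limma adjusted p = 0.0389); leaving out any 1 of the 8 libraries other than HFD WT replicate 1 ended the call, at limma adjusted p of 0.052 to 0.117. It ended too with median-of-ratios scaling (limma adjusted p = 0.0547) and quantile normalization (limma adjusted p = 0.0726), and in all of these the log2 difference was 0.36 to 0.48.

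**Figure D4:**
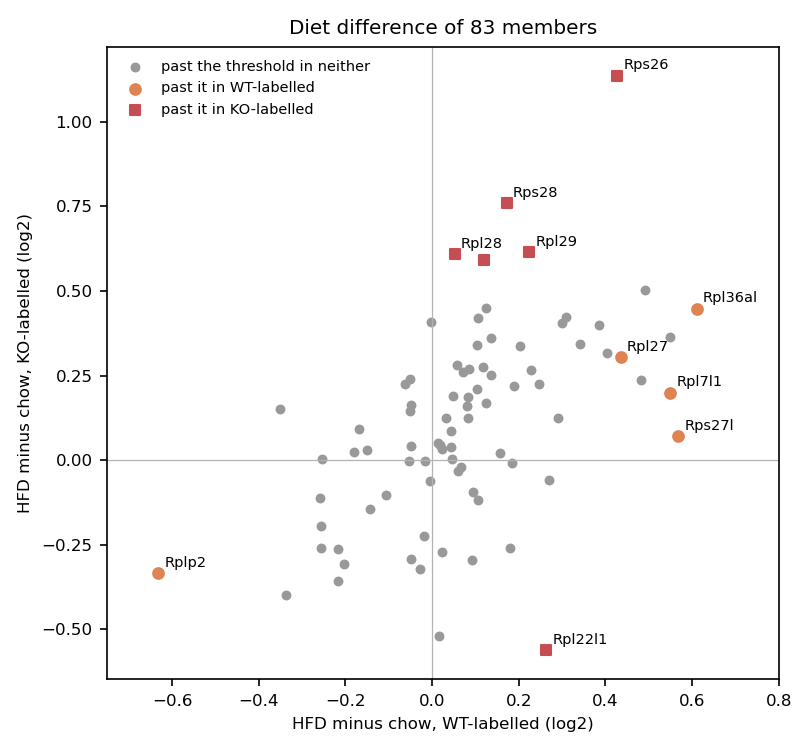
Log2 difference of HFD minus chow for the 83 tested members, WT-labelled mice on the x axis and KO-labelled mice on the y axis, which share no libraries; orange points passed the test in WT-labelled and red squares in KO-labelled mice. With all libraries no member passed in both comparisons, where 27.8% of all genes did, and most members lie near 0 on both axes. The members described in the text are labelled.

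The same diet comparison was made in KO-labelled mice. The median log2 difference of the 83 members was 0.12, against 0.08 for all tested genes. Of the members 5 rose, where 23.5% of all genes did, and 1 fell, where 15.3% did (limma, adjusted p under 0.05), and 12 had an unadjusted p under 0.05, where 48.1% of all genes did. The intervals of 80 members lay within a 2-fold change in either direction. With all libraries, none of the 6 was among the 5 called in WT-labelled mice. Of all genes, 3516 were called in both comparisons, 66.3% of those called in WT-labelled and 71.4% of those called in KO-labelled mice. Calls in 1 comparison alone do not show a difference between the genotypes: the interaction, the test of that difference, passed for no member.

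Rps26 had the largest difference. Its protein lies where mRNA leaves the small subunit. It had 409.96, 962, 555 and 576 FPKM in chow KO replicates 1 to 4 and 1167, 888, 1088 and 2615 FPKM in HFD KO. The highest chow library and the lowest HFD library overlapped, and both are among those with epididymal transcripts, as is the HFD library at 2615 FPKM. The log2 difference was 1.14 (SE 0.32, limma adjusted p = 0.0124) with all libraries and 1.15 (limma adjusted p = 0.00312) without those 3. With these 2 groups fitted alone the limma adjusted p was 0.0584. In WT-labelled mice the log2 difference was 0.43 (limma adjusted p = 0.305), at 525 to 736 FPKM on chow and 621 to 1033 FPKM on HFD.

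Rps28, another protein of the small subunit's mRNA exit side, rose with no overlap. It had 322, 423, 308 and 306 FPKM in chow KO and 551, 439.8, 629.7 and 693 FPKM in HFD KO, a log2 difference of 0.76 (SE 0.19, limma adjusted p = 0.00709). Without the 3 libraries the log2 difference was 0.92 (limma adjusted p = 0.0045).

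Rpl28, a large subunit protein, had 534, 677, 527 and 518 FPKM in chow KO and 843, 733, 808 and 1073 FPKM in HFD KO. These groups did not overlap either, and the log2 difference was 0.61 (SE 0.18, limma adjusted p = 0.0154). Rpl29, a small basic protein of the large subunit, had 230.4, 301, 223 and 178 FPKM on chow and 389, 294, 362 and 370.1 FPKM on HFD, a log2 difference of 0.62 (SE 0.17, limma adjusted p = 0.0108). For Rpl29 the groups overlapped: chow KO replicate 2 was the highest of its group and HFD KO replicate 2 the lowest of its own. The call of Rpl28 ended with these 2 groups fitted alone (0.0523 by limma).

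Rpl22l1 was the member that fell. It is the paralog of Rpl22, whose protein is known to hold back Rpl22l1 expression. It had 23.0, 22.5, 26.4 and 27.6 FPKM in chow KO and 25.4, 10.9, 15.1 and 17.3 FPKM in HFD KO, so that 3 of the 4 HFD libraries lay below all chow libraries and replicate 1 did not. The log2 difference was -0.56 (SE 0.19, limma adjusted p = 0.0319), and -0.37 without the 3 libraries (limma adjusted p = 0.161), which ends the call. It also ended without any 1 of chow KO replicates 3 and 4 and HFD KO replicates 2 and 3 (limma adjusted p of 0.0735 to 0.0992). In WT-labelled mice it had 16.3, 21.5, 21.6 and 23.0 FPKM on chow and 22.6, 28.1, 21.6 and 27.3 FPKM on HFD, a log2 difference of 0.26 (limma adjusted p = 0.291). The ratio of Rpl22l1 to Rpl22 FPKM was 0.390 to 0.573 on chow and 0.604 to 0.889 on HFD in WT-labelled mice, and 0.416 to 0.605 on chow and 0.304 to 0.583 on HFD in KO-labelled mice, so it did not overlap between the diets in WT-labelled mice and did in KO-labelled mice.

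**Figure D5:**
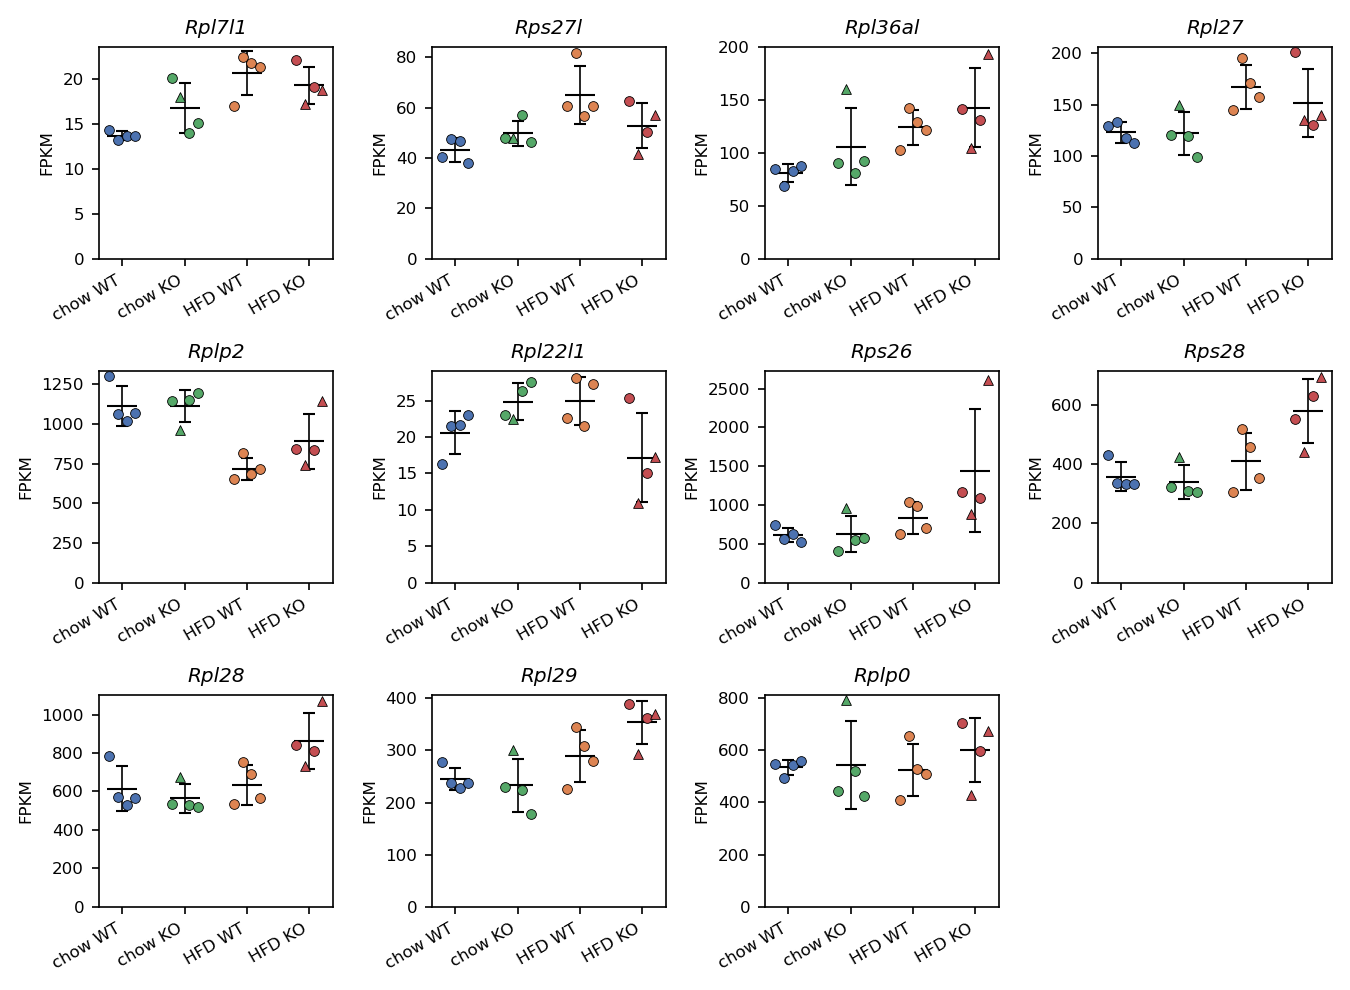
FPKM of 10 of the 11 members that passed the test in a diet comparison and of Rplp0 for reference, in each library, with the group mean and SD; triangles mark the 3 libraries with epididymal transcripts. Rplp2 is lower in all HFD WT than in all chow WT libraries, while Rps26 in HFD KO is spread from 888 to 2615 FPKM.

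Leaving out the 3 libraries with epididymal transcripts changed the KO-labelled count most. Replicates 1 and 3 alone then remain in HFD KO, and replicate 1 has the highest family level of all libraries. The median SE of the members was 0.2105, against 0.1887 with all libraries. Without those 3 libraries 15 members rose (30% of all genes did) and 1 fell (20.1% did), and the median log2 difference of the members was 0.25 against 0.10 for all genes. Rps26, Rps28, Rpl28 and Rpl29 stayed among the 15, which also held Rpl4, Rpl7a, Rpl12, Rpl19, Rpl27, Rpl31, Rpl36a, Rpl36al and Rps10, with log2 differences of 0.52 to 0.72. The member that fell was Rplp2, in place of Rpl22l1. In WT-labelled mice no library was left out and only the shared spread changed. There 5 rose (29.4% did) and 1 fell (21.4% did), among them the same 5 members as with all libraries. Rpl27, Rpl36al and Rplp2 thus passed in both diet comparisons of that fit, each in the same direction. How many of all genes did so was not counted. Leaving out chow KO replicate 2 alone gave 13 members that rose, where 29% of all genes did, and HFD KO replicate 2 alone 11, where 22.5% did; they have the highest and the lowest family level of their groups.

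A fit on levels relative to each library's family median shows which members departed from the rest, whatever the level of the family. In WT-labelled mice 6 members were higher on HFD (18% of all genes were) and 1 lower (11% were). Rpl36al, Rpl7l1 and Rps27l were again among them, with Rpl31 at a relative log2 difference of 0.45 (limma adjusted p = 0.0371). Rplp2 was the lower one, at -0.67 (limma adjusted p = 0.0135). Rpl31 had 143, 144.5, 137 and 143 FPKM in chow WT and 130.03, 253, 239 and 202.5 FPKM in HFD WT: 3 HFD libraries were above all chow libraries and replicate 1, the library with the lowest family level, was below them. Its call ended in 9 of 18 alternatives, where the relative log2 difference was 0.39 to 0.48 and the limma adjusted p 0.0556 to 0.124. The relative call of Rpl7l1 ended in 6, that of Rps27l in 3, that of Rplp2 in 2 and that of Rpl36al in 1.

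In KO-labelled mice 5 members were higher relative to the family (16.4% of all genes were) and 4 lower (9.26% were). The higher ones included Rps26 (1.06, limma adjusted p = 0.0053), Rps28 (0.68, limma adjusted p = 0.00522), Rpl29 and Rpl28, and the 5 were the same as in the plain fit. The 4 lower were Rpl22l1 at -0.64, Rpl39 at -0.60 (limma adjusted p = 0.0164), Rps23 at -0.47 (limma adjusted p = 0.0197) and Rpl9 at -0.43 (limma adjusted p = 0.0497). Rpl39, a very short protein at the exit tunnel of the large subunit, had 368, 426, 408 and 365 FPKM in chow KO and 406, 252, 212 and 253 FPKM in HFD KO. All HFD libraries but replicate 1 lay below the chow libraries. When libraries, scaling or other settings changed, the limma call of Rpl9 ended in 9 of 18 alternatives, that of Rpl28 in 7, those of Rpl22l1 and Rps23 in 4 each, those of Rpl39 and Rpl29 in 2 each and that of Rps28 in 1, while that of Rps26 held in all 18. In those that ended Rpl9's call its relative log2 difference was -0.46 to -0.37, at limma adjusted p of 0.0694 to 0.198.

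The comparison of KO-labelled with WT-labelled mice asks how the family differed by genotype label on each diet. On chow no member passed in limma (1.41% of all genes did), and none had an unadjusted p under 0.05, where 14.7% of all genes did. The median log2 difference was 0.10 against 0.09 for all genes, and the intervals of all 83 tested members lay within a 2-fold change. The differences ran from -0.13 for Rps15 to 0.34 for Rpl36al. On HFD no member passed in limma either (0.0316% of all genes did), and 7 had an unadjusted p under 0.05: Rpl4, Rpl21, Rpl28, Rps3a1, Rps4x, Rps28 and Rpl22l1. Of all genes 11.8% had one there. The median there was 0.14 against 0.09 for all genes, and 82 of 83 intervals lay within a 2-fold change. Under median-of-ratios scaling these member medians turned to -0.004 on chow and -0.005 on HFD, as the median of all genes went from 0.09 to 0.01 on chow and from 0.09 to -0.04 on HFD, so the sign of the family's difference turned with the scaling. Without the 3 libraries the member median was 0.03 on chow (0.03 for all genes) and 0.21 on HFD (0.08 for all genes), and again no member passed in limma.

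The widest members on HFD were Rps26, 0.68 higher in KO-labelled mice (SE 0.32, limma adjusted p = 0.423), and Rpl22l1, with a log2 difference of -0.56 (SE 0.19, limma adjusted p = 0.333). The same 2 genes were widest in the interaction of label and diet, at 0.71 for Rps26 (limma adjusted p = 0.666) and -0.83 for Rpl22l1 (95% interval -1.41 to -0.24, limma adjusted p = 0.274). No member passed the interaction in limma (0.292% of all genes did), and 5 had an unadjusted p under 0.05, where 10.1% of all genes did. None passed without the 3 libraries either. Rpl22l1 then had -0.32 on HFD (limma adjusted p = 0.43) and -0.63 in the interaction (limma adjusted p = 0.287), and Rps26 had 0.72 in the interaction (limma adjusted p = 0.318). Relative to the family median, again no member passed for the genotype label on chow (0.332% of all genes did) or on HFD (0.0395% did), or for the interaction (0.0711% did). The design had 4 mice a group, and the intervals of the interaction lay within a 2-fold change for 73 of the 83 members.

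Members named for their known roles gave mostly small values. Rps6 had log2 differences of -0.15 (WT-labelled) and 0.03 (KO-labelled) between diets. Rpl5 and Rpl11, which bind Mdm2 outside the ribosome, had 0.08 and -0.18 in WT-labelled and 0.12 and 0.02 in KO-labelled mice. Of the parent genes of the paralogs, Rpl3 had -0.004 and -0.06, Rpl10 0.06 and -0.03, and Rpl22 -0.26 and -0.11 (WT-labelled, then KO-labelled). Rps4x, the X-linked gene of a small subunit protein, had -0.35 and 0.15, and none of these members passed in limma. Fau, whose ribosomal protein is made fused to a ubiquitin-like protein, and Rack1, a scaffold on the small subunit, fall outside the name rule, and neither passed in a comparison.

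The mitochondrial ribosomal protein genes, 78 of 78 above the filter, are the nearest family by name and function, and they gave other counts. On HFD 7 rose (8.97%, where 24.6% of all genes did) and 17 fell (21.8%, where 17.2% did) in WT-labelled mice, with a median log2 difference of -0.04. In KO-labelled mice 2 rose (2.56%, where 23.5% did) and 30 fell (38.5%, where 15.3% did), with a median of -0.24. Without the 3 libraries the KO-labelled counts were 1 and 33, the latter 42.3% where 20.1% of all genes fell. Of the cytosolic members 1 fell in each comparison. The difference between the families was not tested.

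Of 50 tested ribosome biogenesis genes, 16 rose (32%) and 6 fell (12%) on HFD in WT-labelled mice, with a median of 0.26, against the 24.6% and 17.2% of all genes. In KO-labelled mice 9 rose (18%) and 6 fell (12%), with a median of 0.23, and both shares were below the 23.5% and 15.3% of all genes. Without the 3 libraries 19 rose (38%, where 30% of all genes did) and 5 fell. Nhp2, a protein of the H/ACA snoRNA particles, rose in both, by log2 differences of 1.05 (limma adjusted p = 3.3e-05) and 0.76 (limma adjusted p = 0.00049). Rrp12 (0.88) and Bysl (0.75), which act in subunit maturation, rose in WT-labelled mice, and Utp4 (-0.61) and Las1l (-0.49) fell in KO-labelled mice. Macrophage marker sums were higher in all HFD than in all chow libraries, and their part in these counts was not tested. Among 11 genes of RNA polymerase I, which makes the large ribosomal RNAs, 0 rose and 2 fell (18.2%) in WT-labelled mice. There 24.6% of all genes rose and 17.2% fell. The 2 were Taf1b at -0.69 and Taf1a at -0.65, and the call of Taf1a ended in 4 alternatives and held in 13. In KO-labelled mice Taf1c rose (0.60) and Taf1b fell (-0.53), 9.09% each, where 23.5% and 15.3% of all genes did. There 1 rose and 1 fell without the 3 libraries too, where 30% and 20.1% of all genes did.

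The translation factors split in both directions. Of 35 initiation factors, 7 rose (20%) and 10 fell (28.6%) in WT-labelled mice, where 24.6% and 17.2% of all genes did. In KO-labelled mice 6 rose and 6 fell (17.1% each, where 23.5% and 15.3% did), or 11 and 5 without the 3 libraries. Eif4a1, the helicase of cap-dependent initiation, rose in WT-labelled mice (0.95) while its paralog Eif4a2 fell (-1.72), and Eif3l fell (-0.64). In KO-labelled mice Eif2b3 fell (-0.91), and Eif4g3 (0.68) and Eif5b (0.60) rose. Of 8 genes listed under elongation factors and their regulators, 3 rose and 3 fell in WT-labelled mice (37.5% each). Not all of the 8 need act in elongation, and of all genes 24.6% rose and 17.2% fell. In KO-labelled mice 2 rose (25%), with or without the 3 libraries. Of all genes 23.5% rose with them and 30% without. Eif5a, which relieves stalled ribosomes, rose in both (0.70 and 0.59). Eef2k, the kinase that inhibits elongation, fell in WT-labelled mice (-1.22) and was lower in chow KO than in chow WT (-1.02, limma adjusted p = 0.0132), a call that ended without chow WT replicate 2 (limma adjusted p = 0.0662). Eef1e1 rose in WT-labelled mice (0.79). Eef1g rose in KO-labelled mice (0.40).

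Upstream growth control genes, 17 of 18 above the filter, gave 5 that rose (29.4%) and 7 that fell (41.2%) in WT-labelled mice. Of all genes 24.6% and 17.2% did. In KO-labelled mice 2 rose (11.8%) and 1 fell (5.88%), where 23.5% and 15.3% of all genes did. Without the 3 libraries 4 rose and 1 fell, where 30% and 20.1% of all genes did. Ddit4 and Sesn2, known as stress-induced inhibitors of mTOR complex 1, fell on HFD in WT-labelled mice, by log2 differences of -2.87 (SE 0.37, limma adjusted p = 6.8e-05) and -1.91 (SE 0.24, limma adjusted p = 5.9e-05). Deptor, another mTOR inhibitor, rose (1.53). In KO-labelled mice Akt1 (0.80) and Max (0.66) rose, and Rps6kb1, which encodes S6 kinase, fell (-0.55). The call of Akt1 ended in 4 of 18 alternatives, and those of Max and Rps6kb1 held in all 18. On chow, Ddit4 (-1.90, limma adjusted p = 0.0187) and Sesn2 (-1.08, limma adjusted p = 0.0365) were lower in KO-labelled than in WT-labelled mice. These chow calls were not firm: that of Sesn2 ended in 10 of 18 alternatives (limma adjusted p of 0.0555 to 0.122) and that of Ddit4 in 4, when chow WT replicate 2, 3 or 4 or chow KO replicate 3 was left out (limma adjusted p of 0.0505 to 0.0736). Sesn2 had -1.02 without the 3 libraries (limma adjusted p = 0.0728). Of 15 other genes known to carry a TOP tract, 1 rose (6.67%) and 5 fell (33.3%) in WT-labelled mice. Of all genes 24.6% rose and 17.2% fell. Among those that fell were Eif3e at -0.50, Btf3 at -0.41 and Eef1d at -0.41. The call of Eef1d ended in 4 of 18 alternatives. In KO-labelled mice 2 rose (13.3%, where 23.5% of all genes did), Pabpc1 (0.57) and Eef1g. Without the 3 libraries 4 rose (26.7%, where 30% did).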

How the data were processed

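The authors deposited 1 table of FPKM values, a length- and depth-scaled fragment count, for 16 libraries from 16 mice; per the submitters' processing notes STAR 2.7 and GRCm38.p6 (mm10) were used, and the counting program, its treatment of reads with several matches and the strand setting go unnamed in those notes and labels. Deposited FPKM values are rounded to 2 decimals and come without counts; the depth behind each is therefore not known, and intervals from counting were not computed. Left out were 14408 circular RNA entries and 1 blank row. Genes at 1 FPKM or more in at least 4 libraries (12667) were tested on log2(FPKM + 1) with limma 3.58.1 in R 4.3.3 (4 group means in 1 fit, intensity trend in the variance, Benjamini-Hochberg over all tested genes, threshold 0.05); fold changes are on that scale and understate those of low genes. A second fit first subtracted each library's median over the 77 subunit genes. Both fits were tested on simulated data. Named are the fixed reference genes and paralogs, up to 5 members per direction and comparison in each fit, the 3 highest and 3 lowest subunit genes, and up to 3 genes per list of the translation machinery. Members and lists were chosen with earlier results of these data known. Alternatives were other scalings, pseudocounts and filters, a replicate block, no variance trend, 2 groups alone, and fewer libraries. The labels name no batch. Promoter windows are RefSeq's (GRCm38.p6), with gene models from GENCODE. A few genes are left unnamed and are not reported here; counts over lists hold them.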

Additional observations from a re-analysis of the deposited data

Results flagged for a closer look

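In 116 groups of 4 libraries, taken for each named member and for the family share, the highest or lowest library was compared with its group. Chance sets about 1 in 20 independent groups apart, but members of the same libraries move together, so these groups were not independent. How many of all genes stand apart in this way was not counted. Chow KO replicate 2, the library with the most epididymal transcripts, stood far above the rest of its group for 6 of the members reported here: Rpl10 at 930.1 FPKM (others at most 635), Rps27 at 905 FPKM (at most 603), Rpl28 at 677 FPKM (at most 534), Rpl3 at 442 FPKM (at most 335), Rps28 at 423 FPKM (at most 322) and Rpl36al at 159.97 FPKM (at most 91.9). The family's share of FPKM there was 7.80%, against at most 6.44% in the other 3. The median log2(FPKM + 1) of all tested genes was also highest there, at 3.56 against at most 3.43. Chow WT replicate 1 stood apart for Rpl28, at 786 FPKM against at most 573, and for Rps28, at 430.3 FPKM against at most 334. HFD KO replicate 4 stood apart for Rps26, at 2615 FPKM against at most 1167, HFD KO replicate 1 for Rpl27, at 201.2 FPKM against at most 140.1, and HFD WT replicate 2 for Rps27l, at 81.9 FPKM against at most 60.6.

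Rpl3l, which is under the filter and in no comparison, was listed at 13.5 FPKM in chow KO replicate 2 and at 12.8 FPKM in HFD KO replicate 4, against at most 0.23 FPKM in the WT-labelled and all other libraries.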

How the results depend on the processing

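Rps27l, Rpl7l1 and Rplp2 in WT-labelled mice and Rps28 and Rpl29 in KO-labelled mice kept their direction and their side of the threshold in all 18 alternatives; Rps26 and Rpl28 did so in 17, Rpl22l1 in 12, Rpl36al in 11 and Rpl27 in 9. In WT-labelled mice 8 members rose with constant-sum scaling (28.7% of all genes did) and 2 with quantile normalization (19.7% did). When 1 library was left out 2 to 9 rose, where 19.3% to 27.9% of all genes did (9 without HFD WT replicate 1). In KO-labelled mice 15 rose without the 3 libraries with epididymal transcripts, where 30% of all genes did. With the 2 groups fitted alone 2 rose, where 17.1% of all genes did. When 1 library was left out 4 to 13 rose, where 17.9% to 29% of all genes did. The count was 13 without chow KO replicate 2 and 11 without HFD KO replicate 2. In the same mice 4 fell with median-of-ratios scaling (20.6% of all genes did), 5 with quantile normalization (24.5%) and 0 with the 2 groups alone (9.92%). When 1 library was left out 0 to 3 fell, where 11.1% to 18.8% of all genes did. Members apart from the family median in WT-labelled mice numbered 4 with no filter, where 10.6% of all genes were higher and 6.13% lower. Without the 3 libraries they numbered 11 (23.4% higher and 15.9% lower). When 1 library was left out they numbered 2 to 6 (13.8% to 17.8% higher and 6.17% to 18.7% lower). In KO-labelled mice 1 stood apart with the 2 groups alone (10.1% higher and 5.35% lower). There 4 to 14 did when 1 library was left out (11.4% to 21.9% higher and 3.93% to 14.8% lower). Signs turned only for members that did not pass: Rpl28 in WT-labelled mice (-0.0081 with median-of-ratios scaling, -0.0344 to 0.1769 when 1 library was left out), Rpl39 in WT-labelled mice (-0.0445 with median-of-ratios scaling, -0.0789 with quantile normalization, -0.1287 to 0.2067 when 1 library was left out) and Rps27l in KO-labelled mice (-0.0364 and -0.0363 with those scalings, -0.0137 to 0.177 when 1 library was left out). The causes were not tested. The counts of 0 for the genotype label and the interaction held in every alternative run.

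Replicate numbers did not pair the libraries: of 24 same-numbered pairs 8 had a correlation of deviations over 0.1 (range -0.63 to 0.37), and 4 of 16 libraries matched their own number best. With the replicate block 3 rose (23.2% of all genes did) and 1 fell (16.7% did) in WT-labelled mice. In KO-labelled mice 4 rose (21.9% did) and 1 fell (14.9% did). FPKM without counts limits what can be said of the members listed near 0.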
